A study of Mus musculus with 6 samples.

Results

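The genes described here encode the receptors for interleukin-2 (IL-2) and for the other cytokines that signal through the common gamma chain. They are Il2ra, Il2rb, Il2rg, Il4ra, Il7r, Il9r, Il15ra and Il21r, 8 of the 47643 annotated gene IDs in each gene table, and they were chosen by name from the rows that carry an Ensembl ID. Of the 8, 7 averaged 1 FPKM or more (fragments counted on a gene, divided by transcript length and library size) over the 6 libraries and were tested among 12113 genes. Il9r lay under that level. The libraries are RNA sequencing of induced regulatory T cells (iTreg) made from splenic CD4+ T cells of C57BL/6 mice with the Foxp3-DTR/EGFP allele, which all samples carry and which marks cells that express Foxp3 with a fluorescent protein. The cells spent 2 days with plate-bound antibody to CD3, soluble antibody to CD28 and TGF-β. They then received vehicle (DMSO, 3 libraries) or 100 nM prostaglandin E2 (PGE2, 3 libraries) for 6 h, and Foxp3+ cells were sorted on the reporter. All cells had therefore been activated and skewed in culture, and no resting or freshly isolated cells are among these samples. Whether replicates are separate mice or cultures is not in the labels; p-values therefore measure only the spread between these samples, which may be technical.

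IL-2 is bound by a trimer of the alpha chain (Il2ra, CD25), the beta chain (Il2rb, CD122) and the common gamma chain (Il2rg, CD132), and the alpha chain gives the receptor its high affinity. The beta chain also serves IL-15, together with its own alpha chain Il15ra. The gamma chain pairs with the chains for IL-4, IL-7, IL-9 and IL-21, and signals pass through the kinases JAK1 and JAK3 to STAT factors. Regulatory T cells depend on IL-2 from other cells, express CD25 at a high level and are known for a low level of the IL-7 receptor. PGE2 acts on T cells mainly through the receptors EP2 and EP4, which raise cyclic AMP.

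Library depth, from how coverage scaled with FPKM, was 3.996 to 5.446 gigabases of fragments. The libraries carried T cell transcripts throughout: the 5 T cell markers summed to between 1133 and 1155 FPKM with vehicle and between 1143 and 1241 with PGE2. The 6 markers of regulatory T cells, which include Il2ra, summed to between 1384 and 1472 and between 1807 and 1858 FPKM; of the 6, Ctla4 stood at 199 ± 7.14 with vehicle and rose to 345 ± 5.93 with PGE2 (limma adjusted p = 0.0076). Tnfrsf18, at 412 ± 70.4 and 707 ± 42.3 FPKM, missed the threshold (adjusted p = 0.056 with limma) and passed with the replicate block (adjusted p = 0.033). Foxp3, Il2ra, Ikzf2 and Ikzf4 were not called with limma (adjusted p = 0.51, 0.75, 0.87 and 0.86), nor with the block. The means of Il2ra and Ikzf4 were lower with PGE2, and those of Foxp3 and Ikzf2 were higher. The higher sum with PGE2 therefore does not hold for each marker. Of 2 CD8 T cell markers Cd8a was under 1 FPKM and the sum was 5.27 to 6.64. Of 4 B cell markers 3 were under 1 FPKM (sum 3.55 to 5.70 over both groups), of 5 myeloid markers 4 (sum 1.87 to 5.22) and of 4 stromal and endothelial markers 3 (sum 9.18 to 12.1, nearly all Pecam1). All 4 erythroid and platelet markers were under 1 FPKM (sum 0.603 to 1.16). Of 4 NK cell markers 2, Ncr1 and Klrb1c, were at 0 in every library, and the sum was 0.627 to 2.79 FPKM with vehicle and 2.26 to 4.53 with PGE2. Nearly all of that sum was Klrd1, an NK receptor gene also found in some activated T cells, at 0.961, 0.627 and 2.78 FPKM with vehicle and 2.54, 2.26 and 4.50 with PGE2, higher with PGE2 in each replicate number. It was not called by limma (adjusted p = 0.38) but passed in the fit that blocks on replicate number (adjusted p = 0.033). Il2rb is also a gene of NK cells, and the part of such cells in its values was not tested. In bulk libraries, fewer cells that express a gene and less of its RNA per cell cannot be told apart.

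Among the receptor genes 1 of the 7 tested, Il7r, rose after PGE2 and 0 fell, where 0.809% of all 12113 tested genes were called in either direction, 0.570% were called higher and 0.239% lower. By unadjusted p under 0.05 there were 3 of the 7 (Il7r, Il2rb and Il21r), against 13.0% of all tested genes. The libraries of the groups did not overlap for 4 of the 7 (Il7r, Il2rb and Il2rg above, Il21r below), against 19.7% of all tested genes (7.81% above and 11.9% below). The median log2 change of the 7 was 0.08, that of all tested genes -0.03.

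**Figure D1:**
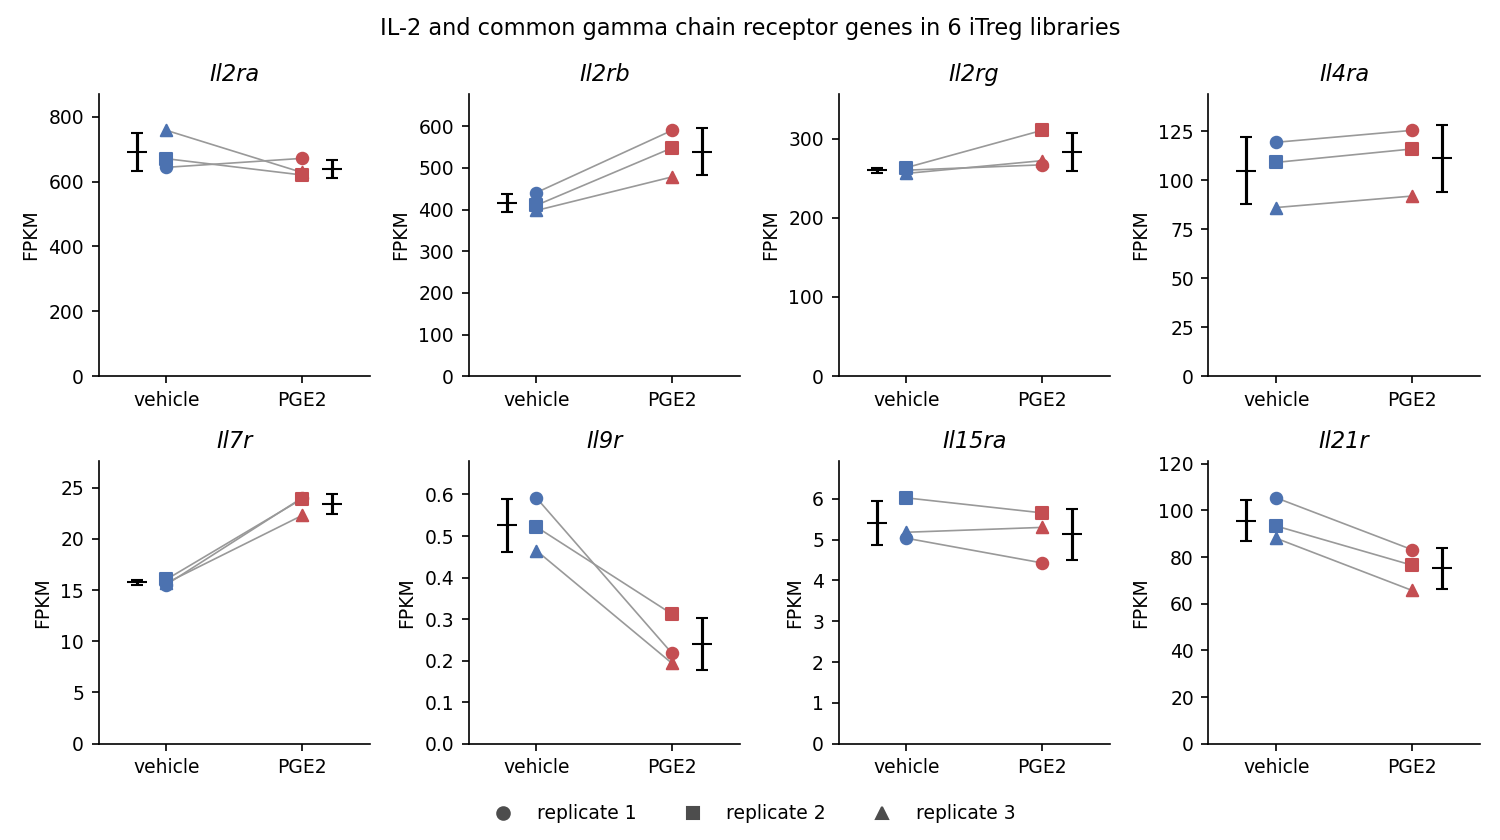
FPKM of each of the 8 receptor genes in 3 vehicle and 3 PGE2 libraries (points, lines join equal replicate numbers; black bars, mean and SD; each panel has its own axis from 0). Il7r lies between 15.5 and 16.0 FPKM with vehicle and between 22.3 and 24.0 with PGE2, while the groups of Il2ra, Il4ra and Il15ra overlap.

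Il7r (ENSMUSG00000003882.4, chromosome 15 from 9506161 to 9529876 on the minus strand in mm10, protein coding) encodes the alpha chain of the IL-7 receptor, CD127, which also forms the receptor for TSLP together with Crlf2. Its FPKM with vehicle was 15.5, 16.0 and 15.7 in replicate order (1, 2, 3), and with PGE2 it was 24.0, 23.9 and 22.3. All 3 PGE2 libraries lay above all 3 vehicle libraries, and the spread within each group was small beside the gap. The mean went from 15.8 ± 0.257 to 23.4 ± 0.964 FPKM (SD, n = 3). On the scale of log2(FPKM + 1) this was a 1.46-fold rise, with a log2 change of 0.54 and a 95% interval of 0.36 to 0.72 (SE 0.08, adjusted p = 0.031 with limma). Coverage, the mean read depth over the gene, was 62.7 to 81.0 with vehicle and 101 to 131 with PGE2. Divided by the depth of each library it nearly equalled FPKM throughout, for example 15.5463 against 15.5464 in vehicle replicate 1. Its log2 change was thus bound to be the same, 0.54, and is no separate check for this gene. The call rests on all 6 libraries together: without any 1 of them Il7r missed the threshold, at adjusted p of 0.067 to 0.18 with limma, while its log2 change stayed between 0.52 and 0.57. Even with PGE2 its FPKM was far below that of the IL-2 receptor chains. By its mean over all 6 libraries Il7r had rank 3762 of 12113 tested genes.

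The 250 bases before the RefSeq start of Il7r (chr15:9529877-9530126, minus strand) and of Il21r (chr7:125603179-125603428, plus strand), both from GRCm38.p6, are shown because these are the called gene and the tested gene with the lowest log2 change. Capitals mark matches to the 5 motifs searched on both strands: TGACGTCA and its short form TGACG, the sites of CREB factors; TGTTTAC, a FOXO site; TTCNNNGAA, a STAT site; and AAAGGTCA, an NR4A site. The short form lies within the longer one.
Il7r: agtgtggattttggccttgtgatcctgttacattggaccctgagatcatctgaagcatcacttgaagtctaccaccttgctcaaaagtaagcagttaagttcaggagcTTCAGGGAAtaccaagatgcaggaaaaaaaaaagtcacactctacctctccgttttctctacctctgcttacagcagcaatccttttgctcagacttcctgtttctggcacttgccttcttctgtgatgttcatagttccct
Il21r: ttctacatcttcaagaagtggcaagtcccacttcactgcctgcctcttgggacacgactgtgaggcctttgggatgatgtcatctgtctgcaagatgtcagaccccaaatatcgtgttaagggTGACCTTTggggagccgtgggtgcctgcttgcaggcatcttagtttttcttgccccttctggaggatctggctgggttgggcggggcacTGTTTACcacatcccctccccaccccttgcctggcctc
In Il7r the capitals are a match to TTCNNNGAA, from base -142 to -134 relative to the start, a motif that 7.04% of 32536 promoter windows of this length hold. In Il21r they are a match to AAAGGTCA on the opposite strand, from base -127 to -120 (1.35% of windows), and a match to TGTTTAC from base -38 to -32 (3.17% of windows). Of the 8 receptor genes 7 had an entry in the promoter table. TGACGTCA, held by 1.56% of windows, matched none of their 8 windows, and TGACG, held by 17.9%, matched 1, the second start of Il15ra. These matches describe letters in these windows only.

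Il2rb (ENSMUSG00000068227.8, chromosome 15 from 78480553 to 78495066, minus strand), the signalling chain shared by IL-2 and IL-15, was listed with vehicle at 441, 410 and 398 FPKM in replicate order, and with PGE2 at 590, 548 and 479. The PGE2 libraries were all above the vehicle libraries, and in each replicate number the PGE2 library was the higher, by 1.34, 1.34 and 1.20 times. The means were 416 ± 22.1 and 539 ± 56.4 FPKM (SD, n = 3), the second largest log2 change of the 7 tested genes. With 0.37 (SE 0.11, 95% interval 0.11 to 0.63) it did not pass the test over all genes (adjusted p = 0.21 with limma, and 0.086 with the replicate number as a block). The log2 change in coverage was the same, 0.37, but scaled coverage was nearly proportional to FPKM here, so it is no separate check.

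Il2ra (ENSMUSG00000026770.5, chromosome 2 from 11642807 to 11693193, plus strand), the alpha chain, was the most abundant of the 8 genes in FPKM, at rank 109 of 12113 tested genes. It stood at 644, 670 and 758 FPKM with vehicle and at 671, 620 and 628 with PGE2, in replicate order. The groups overlapped, and the highest library was vehicle replicate 3. Its log2 change was -0.11 (SE 0.10, 95% interval -0.35 to 0.14), so a rise beyond 1.10-fold or a fall to under 0.783-fold lies outside the interval; without vehicle replicate 3 the change was -0.04.

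Il2rg (ENSMUSG00000031304.18, chromosome X from 101264378 to 101268255, minus strand), the common gamma chain, stood at 260, 263 and 256 FPKM with vehicle and at 267, 310 and 272 with PGE2. The groups did not overlap, but the gap between the highest vehicle and the lowest PGE2 library was small, and the log2 change of 0.12 (SE 0.09, 95% interval -0.10 to 0.34) did not pass (adjusted p = 0.66 with limma). It was 0.05 without PGE2 replicate 2 and 0.03 with quantile normalization. A second annotated gene, Gm20489, spans the locus on the same strand and shares exons with Il2rg. It was listed at a mean of 160 FPKM with vehicle and 171 with PGE2, and how reads were divided between them is not given in the sources used here. Summed with Gm20489, a check added after seeing the data, Il2rg gave a log2 change of 0.11.

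The 3 chains of the IL-2 receptor made up 84.5% to 88.1% of the summed FPKM of the 8 genes in each library. The FPKM ratio of Il2ra to Il2rb was 1.46, 1.63 and 1.90 with vehicle, in replicate order, and 1.14, 1.13 and 1.31 with PGE2. All PGE2 libraries were below all vehicle libraries, and a two-sided exact permutation test gave p = 0.1, the smallest that 3 against 3 libraries allow. The ratio of Il2rb to Il2rg was 1.70, 1.56 and 1.55 with vehicle and 2.21, 1.77 and 1.76 with PGE2, again without overlap (exact permutation p = 0.1). Library scaling cancels in such ratios, and each kept its direction and lack of overlap when coverage was used in place of FPKM. Because no p under 0.1 can be reached, these ratios are descriptions of the 6 libraries.

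**Figure D2:**
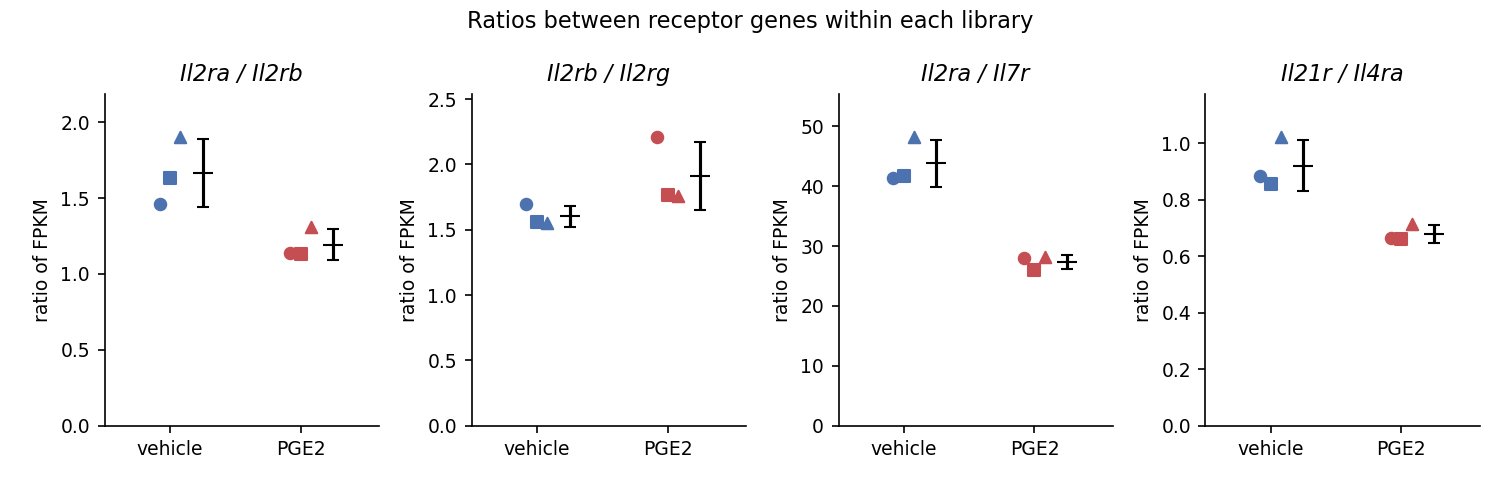
Ratio of the FPKM of receptor genes within each library (points; black bars, mean and SD of 3 libraries; axes from 0). The ratio of Il2ra to Il2rb lies at 1.46 or above with vehicle and at 1.31 or below with PGE2, and the 2 groups do not overlap in any of the 4 ratios.

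Il21r (ENSMUSG00000030745.9, chromosome 7 from 125603429 to 125633570, plus strand), the receptor of IL-21, had the lowest log2 change of the 7. It stood at 105, 93.3 and 88.0 FPKM with vehicle and at 83.2, 76.5 and 65.7 with PGE2, in replicate order. Every PGE2 library lay below every vehicle library, and within replicate numbers PGE2 was at 0.789, 0.820 and 0.746 times vehicle. The log2 change of -0.35 (SE 0.12, 95% interval -0.62 to -0.07) did not pass over all genes (adjusted p = 0.26 with limma, and 0.061 with the replicate block). In coverage it was -0.29.

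Il4ra (ENSMUSG00000030748.9, chromosome 7 from 125552120 to 125579474, plus strand), the alpha chain of the IL-4 and IL-13 receptors, lies 24.0 kb upstream of Il21r on the same strand. It stood at 119, 109 and 86.1 FPKM with vehicle and at 126, 116 and 92.0 with PGE2. The groups overlapped almost fully, and replicate 3 was the lowest in both. Within replicate numbers the PGE2 library was at 1.05, 1.06 and 1.07 times the vehicle library. Its log2 change was 0.08 (SE 0.16, 95% interval -0.29 to 0.46), and its sign turned without vehicle replicate 3 (-0.050) or without PGE2 replicate 1 (-0.01). The ratio of Il21r to its neighbour Il4ra, a comparison chosen after the values were seen, was 0.882, 0.855 and 1.02 with vehicle and 0.663, 0.660 and 0.715 with PGE2 (exact permutation p = 0.1, two-sided).

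Il15ra (ENSMUSG00000023206.16, chromosome 2 from 11705290 to 11734317, plus strand), which presents IL-15 to the beta and gamma chains, begins 12.1 kb after the end of Il2ra. It stood at 5.03, 6.02 and 5.18 FPKM with vehicle and at 4.43, 5.66 and 5.30 with PGE2, and the groups overlapped. The log2 change was -0.07 (SE 0.12, 95% interval -0.34 to 0.21; 0.017 without PGE2 replicate 1). Its level is uncertain, because its coverage was 2.34 to 4.13 in the 6 libraries, and coverage was 0.451 to 0.799 times FPKM where genes with a single transcript had 3.996 to 5.446. Divided by that library constant, coverage gave 0.585 to 0.819 with vehicle and 0.588 to 0.649 with PGE2. Il15ra has 18 annotated transcripts in GENCODE M21, the most of the 8 genes, which have 2 to 5 otherwise. In PGE2 replicate 1 the assembled locus over Il15ra was joined to Il2ra and ran from 11642807 to 11734317 at 643 FPKM, so that the locus value there is not that of Il15ra.

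Il9r (ENSMUSG00000020279.10, chromosome 11 from 32187541 to 32200279, minus strand), the IL-9 receptor, was the lowest of the 8 genes. It stood at 0.592, 0.522 and 0.465 FPKM with vehicle and at 0.217, 0.312 and 0.193 with PGE2. The groups did not overlap in FPKM, but its coverage was only 0.878 to 3.03 reads, and scaled coverage did overlap, with 0.268 in vehicle replicate 3 and 0.299 in PGE2 replicate 2. In the fit without a filter on low values, over 26484 genes, its log2 change was -0.30 (SE 0.05, adjusted p = 0.19 with limma). That size depends on the pseudocount: with 0.1 in place of 1 the difference was -0.89, and the ratio of the mean FPKM was 0.458.

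**Figure D3:**
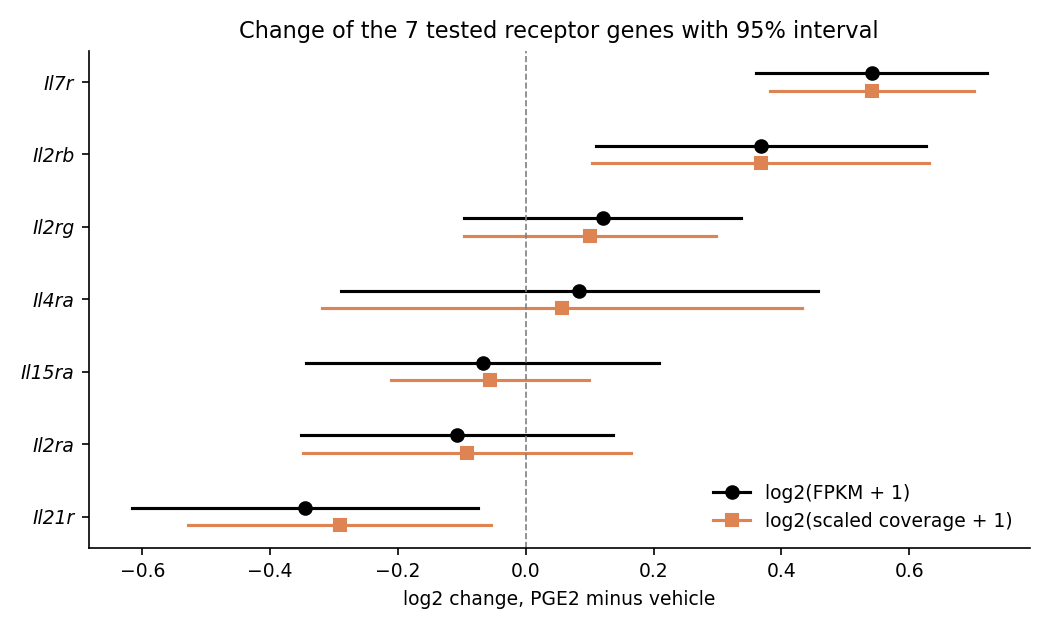
Log2 change (PGE2 minus vehicle, x axis) of the 7 tested receptor genes with unadjusted 95% intervals from limma, from FPKM (circles) and from coverage divided by the library constant (squares). The intervals of Il7r, Il2rb and Il21r leave out 0 on both measures, with FPKM values of 0.54, 0.37 and -0.35. For Il7r and Il2rb coverage was nearly proportional to FPKM, so the measures are not separate checks there.

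By mean FPKM, the order with vehicle was Il2ra at 691 ± 59.6, Il2rb at 416 ± 22.1, Il2rg at 260 ± 3.66, Il4ra at 105 ± 17.1, Il21r at 95.6 ± 8.89, Il7r at 15.8 ± 0.257, Il15ra at 5.41 ± 0.534 and Il9r at 0.526 ± 0.0636 (SD, n = 3). The ranges of Il4ra and Il21r overlapped, and all other neighbours in this order were apart in all 3 libraries. With PGE2 the order was the same, but Il4ra (111 ± 17.3) and Il21r (75.1 ± 8.82) no longer overlapped. Scaled coverage kept the order with vehicle, though Il15ra and Il9r overlapped, with Il2ra at 509 ± 51.3 and Il2rb at 402 ± 21.2. With PGE2 it put Il2rb (521 ± 54.2) at or above Il2ra (476 ± 21.4), in 2 of 3 libraries and with overlapping ranges, whereas FPKM put Il2ra above in all 3. Which chain was more abundant with PGE2 therefore depends on the measure. The FPKM ratio of Il2ra to Il7r was 41.4, 41.8 and 48.3 with vehicle and 28.0, 25.9 and 28.2 with PGE2 (exact permutation p = 0.1, two-sided).

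**Figure D4:**
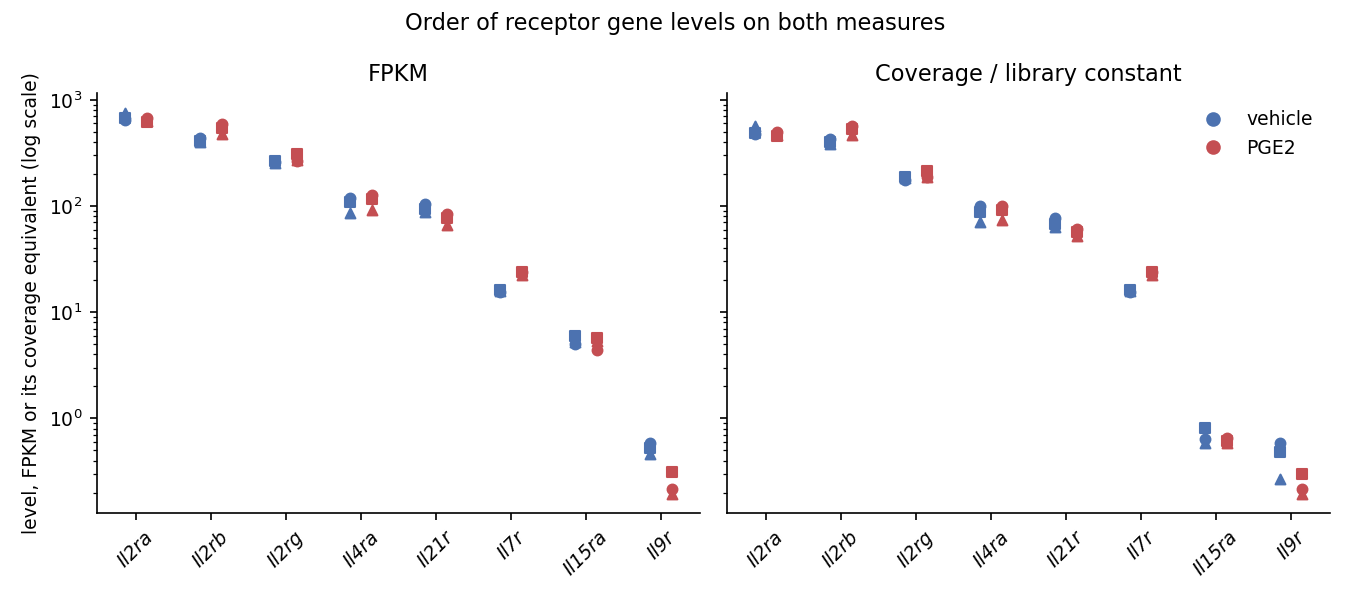
Level of the 8 receptor genes in each library on a log axis, as FPKM (left) and as coverage divided by the library constant (right), ordered by mean FPKM with vehicle; markers give the replicate number as in the plot of FPKM by gene. Il15ra lies at 4.43 to 6.02 FPKM but at 0.585 to 0.819 by coverage, and Il2ra and Il2rb meet by coverage with PGE2.

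The ligands of these receptors were mostly at very low levels in the sorted cells. Of 8 ligand genes (Il2, Il4, Il7, Il9, Il13, Il15, Il21 and Tslp) 7 were under 1 FPKM on average, among them Il2 at 0.217 ± 0.0407 and 0.178 ± 0.0304 FPKM (SD, n = 3). The exception was Il9, the growth factor for mast cells and T cells that binds Il9r. It stood at 9.07, 10.01 and 13.7 FPKM with vehicle and at 4.05, 7.17 and 5.68 with PGE2, without overlap. With a log2 change of -0.85 (SE 0.21) it was not called by limma (adjusted p = 0.13), but it was with the replicate block (adjusted p = 0.036). Of 3 partner chains, Crlf2, which joins Il7r in the TSLP receptor, was the only tested gene, at 43.6 ± 7.92 and 54.0 ± 3.62 FPKM, a log2 change of 0.32 that did not pass (adjusted p = 0.39 with limma), while Il13ra1 and Il13ra2 were under 1 FPKM.

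Of 10 kinases, STATs and adaptors 0 rose and 0 fell with limma, where 0.809% of all tested genes were called. By unadjusted p under 0.05, 2 lay above and 0 below vehicle, against 13.0% of all tested genes in either direction. With the replicate block 1 rose, where 3.26% of all tested genes were called. That gene, Stat3, the factor used by IL-21 and IL-6 receptors, had the smallest p and, by a small margin over Jak1, the highest mean FPKM; by scaled coverage Jak3, Stat6 and Stat5b lay above it. It stood at 62.0, 56.5 and 60.3 FPKM with vehicle and at 88.9, 79.4 and 76.9 with PGE2, without overlap (log2 change 0.45, SE 0.09, adjusted p = 0.079, and 0.034 with the block). Of the receptor's kinases, Jak1 was at 69.5 ± 2.21 and 71.1 ± 5.50 FPKM (95% interval of the log2 change -0.18 to 0.23) and Jak3 at 68.8 ± 8.73 and 68.9 ± 6.34 (-0.27 to 0.28). The level of Jak1 depends on the measure, as its mean scaled coverage was 24.0 with vehicle and 23.8 with PGE2. Stat5a, a main IL-2 effector, was at 23.0 ± 1.81 and 20.1 ± 1.001 FPKM and its relative Stat5b at 40.6 ± 3.18 and 45.5 ± 6.40; neither passed. The list median was 0.02.

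Of 16 tested genes of the IL-2 and STAT5 response and of survival, 0 rose and 0 fell with limma. Of all tested genes 0.809% were called in either direction. By unadjusted p under 0.05, 1 lay above and 3 below vehicle, against 13.0% of all tested genes in either direction. Il2ra, itself a STAT5 target, was the highest of them. The smallest p was that of Socs2, a feedback inhibitor of JAK and STAT signalling, at 146 ± 13.7 and 110.2 ± 2.49 FPKM, with a log2 change of -0.40 and an SE of 0.09 (limma adjusted p = 0.12, and 0.054 with the block). As for Il15ra, the level of Socs2 is uncertain, because its scaled coverage was only 16.5 ± 0.728 and 12.6 ± 0.660. Its log2 change in coverage was -0.37. Pim2, a survival kinase, was at 16.1 ± 1.89 and 11.6 ± 1.09 FPKM and was the 1 gene of the list that fell with the block (adjusted p = 0.04). With the block 3.26% of all tested genes were called. Cish, another direct STAT5 target, was at 230 ± 29.8 and 232 ± 16.6 FPKM (95% interval of the log2 change -0.26 to 0.30). Its mean scaled coverage was lower, 108 with vehicle and 108 with PGE2. Mcl1, the 1 gene above vehicle by unadjusted p, was at 93.4 ± 3.54 and 112 ± 4.31 FPKM (limma adjusted p = 0.22). Of the 16 genes 7 had a higher and 9 a lower mean on the log2 scale with PGE2. The list median was -0.04.

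Among 10 regulators known to act on receptor genes 0 rose and 1 fell, where 0.570% of all tested genes were called higher and 0.239% lower. Eomes, a T-box factor that activates Il2rb in cytotoxic cells, was at 4.31, 3.68 and 5.14 FPKM with vehicle and at 2.20, 1.77 and 2.02 with PGE2. Its log2 change was -0.84 with an SE of 0.13 (limma adjusted p = 0.046), and it missed the threshold without any 1 of the libraries, at 0.074 to 0.21. Foxo1, which activates Il7r, was at 19.6 ± 1.18 and 18.0 ± 2.50 FPKM, and Gfi1, which represses it, at 5.96 ± 0.167 and 5.79 ± 1.03. Foxp3, whose reporter set the sort gate, was at 92.1 ± 14.4 and 115 ± 22.5 FPKM (limma adjusted p = 0.51). The list median was under 0.01 in size, and 5 of the 10 genes lay on each side of 0.

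Of 7 FOXO1 targets of resting T cells, a list that holds Il7r, 1 rose, Il7r itself, and 0 fell. Of all tested genes 0.809% were called. By unadjusted p under 0.05, 3 lay above vehicle, Il7r among them, and 1 below, against 13.0% of all tested genes in either direction. Ccr7, the homing receptor for lymph nodes, was at 123.4 ± 10.4 and 166 ± 12.8 FPKM, with a log2 change of 0.43 and an SE of 0.10 (limma adjusted p = 0.12). Tcf7, a factor of naive cells in the same list, had a log2 change of -0.24 (adjusted p = 0.36). The list median was 0.21 beside -0.03 for all tested genes.

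**Figure D5:**
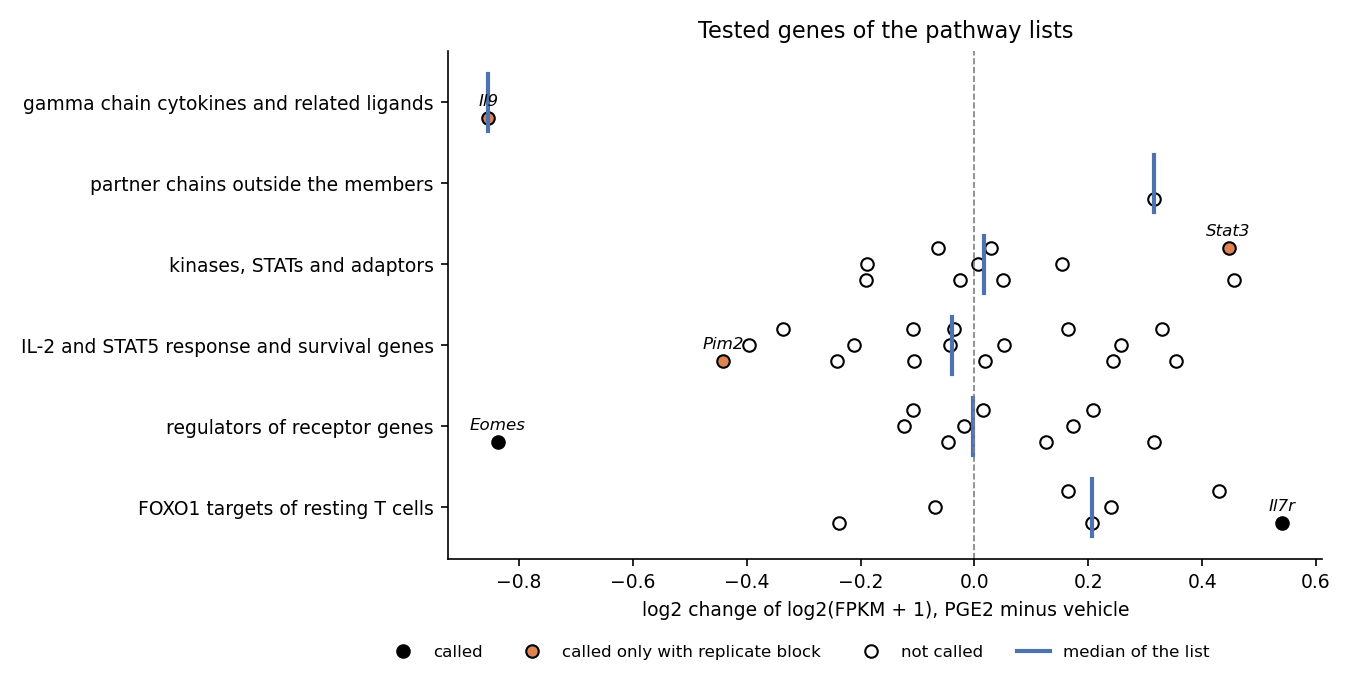
Log2 change (PGE2 minus vehicle) of each tested gene in the 6 pathway lists; filled black points passed the test, orange points passed only with the replicate number as a block, and blue bars are list medians. Il7r at 0.54 and Eomes at -0.84 are the only genes called without the block.

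The genes whose log2(FPKM + 1) ran most like that of a receptor gene over the 6 libraries were taken from the 5251 protein-coding genes that averaged 10 FPKM or more. For Il7r these were Trib2 (Pearson r = 0.997), Tex2, Smpd1, Kpna1 and Chp1 (0.994). Of these 5, Tex2 and Kpna1 rose after PGE2, with log2 changes of 0.50 and 0.83 (adjusted p = 0.032 and 0.014 with limma), where 0.570% of all tested genes were called higher. Because the 5 were picked for likeness to a called gene in the same libraries, these calls are no separate result. For Il2ra they were Adam10 (r = 0.991), Cdk6, Acap2, Api5 and Cep192 (0.977), none of which was called. Such values over 6 libraries describe likeness only. The correlations span both groups, so a difference between vehicle and PGE2 enters them.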

How the data were processed

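RNA sequencing was measured in 3 vehicle and 3 PGE2 libraries, grouped by sample title. The submitters' processing notes name Trim Galore, HISAT2 and mm10; versions, annotation and the gene-level quantifier are not stated there. Per the file headers, each deposited table gives coverage, FPKM and TPM. FPKM was scaled by the authors to length and library size, and the deposited coverage signal is the unscaled mean read depth. TPM, as deposited, is a score without a fixed total and was not used: loci appear as assembled entries and again as genes, so that a library's total is 1.91 to 1.94 times that of its assembled entries. These are not counts, so no count test was run and no counting interval is given.

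IDs listed more than once per table (21 to 27) were summed. Of 47643 gene IDs 47224 are in GENCODE M21 (GRCm38), which gave biotypes and transcript numbers. Genes that averaged 1 FPKM or more were tested as log2(FPKM + 1), a scale that understates changes of low genes. The test was limma 3.58.1 in R 4.3.3 (trended variance, no covariate, two-sided, Benjamini-Hochberg over 12113 genes, threshold 0.05). The fit was also run on simulated data with independent noise in each library. That setting holds no likeness between libraries of the same replicate number. The depth constant is the median ratio of coverage to FPKM over genes with a single transcript, 97.3% to 97.7% of which lay within 1% of it. Deviations from group means correlated at 0.227, 0.312 and 0.529 for replicate numbers 1, 2 and 3. Unmatched pairs ranged from -0.433 to 0.271, the highest above the match of number 1. Every match was over 0.1, but so were unmatched pairs at 0.271 and 0.149. These values therefore cannot establish that the numbers pair the libraries, and the labels do not state it. The fit with the number as a block is an alternative, given where it changes a call or bears on a receptor gene. Promoter sequences are from RefSeq (GRCm38.p6).

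The receptor genes and the 6 pathway lists were chosen with earlier results of these data known. The rule for names takes all 8 receptor genes; from each list every called gene or, with none called, the genes with the smallest p and the highest level; and the 5 genes most like Il2ra and any called receptor gene. Il2, Jak1, Jak3, Stat5a, Stat5b, Cish, Pim2, Mcl1, Foxo1, Foxp3, Gfi1, Ccr7, Tcf7, Klrd1, Tnfrsf18, Ctla4, Ikzf2, Ikzf4 and Gm20489 were named after their values were seen. Plots used matplotlib 3.10.9 (Python 3.11.15).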

Additional observations from a re-analysis of the deposited data

How the results depend on the processing

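Il7r, Il2rb, Il2rg, Il2ra, Il21r and Il9r kept their sign under every alternative run for each, but not their size: Il2ra ranged from -0.16 to -0.04, Il2rg from 0.03 to 0.16 and Il9r from -0.89 to -0.22. Il7r passed under every alternative that kept all 6 libraries (lowest and highest log2 change 0.52 and 0.57) and under none that left out a library, so the number of receptor genes that rose was 0 in each of those 6 fits. The fit on coverage is no separate check for Il7r, whose scaled coverage nearly equals its FPKM. Without 1 library each, the log2 change of Il4ra ranged from -0.050 (without vehicle replicate 3) to 0.21, with -0.01 without PGE2 replicate 1, and that of Il15ra from -0.13 to 0.017 (without PGE2 replicate 1). With the assembled locus in place of the gene, Il15ra gave 2.04, because the locus of PGE2 replicate 1 holds Il2ra too. Of all tested genes 69 rose and 29 fell. With no filter on low values 33 rose and 12 fell, with coverage in place of FPKM 112 and 47, and without the variance trend 16 fell. Without 1 library each, 16 to 53 rose and 4 to 16 fell. With the replicate number as a block 215 rose and 180 fell; among the pathway lists, receptor genes left out, 1 rose (Stat3) and 3 fell (Il9, Pim2 and Eomes), and the block changed no call of a receptor gene. Eomes was not called, and 0 list genes fell, with no filter, with quantile normalization and without any 1 library. Likewise 0 fell with the filter at a mean of 5 FPKM, which leaves Eomes out. For the other differences the cause was not tested. Depth limits Il9r, whose coverage was 0.878 to 3.03 reads.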
